A study of Mus musculus with 18 samples.

Results

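The mammary tumours of ErbB2 knock-in (KI) mice were compared with normal mammary glands. The comparison holds every RNA sample of both groups: 5 KI tumours and 2 normal glands, which are 7 of the 9 RNA samples of the series and 14 of its 18 arrays. All mice were female and of the FVB/N strain. The tumour genotype is given as ErbB2 knock-in, and the normal glands carry no genotype entry. No treatment is given, and the labels used here do not name the form of the allele, its promoter, a Cre driver, or the age of the mice. RNA came from whole flash-frozen tissue, so tumour cells, fat, vessels and immune cells were measured together. The remaining 2 RNA samples are pools of 5 NIC tumours each, a name for which the labels give no genotype. They entered the fit only to share its estimate of the spread and, where stated, as a second tumour group.

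The protein ErbB2 is one of the 4 ErbB receptors, membrane kinases that also include the EGF receptor. It binds no known ligand itself and signals in pairs with its relatives, above all ErbB3, through the RAS to ERK and PI3K to AKT cascades. Extra copies or activating changes of ErbB2 drive a class of breast cancers, and mouse models made with ErbB2 form mammary tumours of luminal epithelium. A resting mammary gland of a virgin mouse, by contrast, is mostly fat, in which a thin tree of luminal and myoepithelial cells branches among fibroblasts, vessels and lymph nodes. The titles of the normal glands used here do not state whether they came from virgin mice. The titles carry different codes, and only that of normal gland 2, as numbered below, holds the letters PI. The meaning of the codes is not given.

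Each RNA was labelled once with Cy5 and once with Cy3 and hybridised against one common mouse reference RNA. Every level given here is the mean of those 2 arrays as log2 of sample over reference, so 0 means the level of the reference and a step of 1 is a factor of 2. A difference is the mean of the KI tumours minus the mean of the normal glands on that scale, with its standard error (SE) from limma, and a gene was called when its p-value, adjusted by Benjamini and Hochberg over all 28919 genes or transcripts, was below 0.05. KI tumours 1 to 5 and normal glands 1 and 2 are numbered in the order of the record. Nothing says whether the samples of a group came from separate mice, so a p-value here measures no more than how far these RNA samples spread, which may be technical. The KI arrays and the normal arrays lie in separate deposited value tables, filed under different platform records. The middle 50% of probes spanned 0.422 to 0.562 log2 units on the KI arrays and 0.761 to 0.970 on the normal arrays. On the NIC arrays, which lie in the same value table as the normal arrays, it spanned 0.514 to 0.559. The wider span was thus seen on the normal arrays and not on all arrays of their table. Table, platform record and group cannot be told apart in any level set between them. On the KI arrays 95.2% to 98.8% of probes were well above background. Across genes, KI tumours correlated with each other at r = 0.709 to 0.894, the normal glands at 0.875, and KI tumours with normal glands at 0.385 to 0.50; genes are not independent replicates.

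Of the 28919 genes, 5158 (17.8%) were higher in the KI tumours and 7191 (24.9%) were lower, which is 42.7% in all. Rises were the larger of these changes. The called genes that rose had a median difference of 1.02 and those that fell of −0.60. At least 2-fold changes numbered 2647 higher (9.15%) and 1641 lower (5.67%), so that 61.7% of them were rises. With all columns brought to one distribution by quantile normalization, the same split was 1630 higher and 1853 lower, or 46.8% rises. In 6854 genes (23.7%) all 5 KI tumours lay above both normal glands, and in 8791 (30.4%) all lay below. With calls this common, the counts of each gene group below are to be read against 17.8% higher and 24.9% lower. The median difference over all genes was −0.03.

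The targeted gene was high in every tumour. Erbb2 stood at 0.83, 0.70, 1.01, 0.81 and 0.30 in KI tumours 1 to 5 and at −1.08 and −1.29 in the normal glands. The groups did not overlap, and the tumours were 3.77-fold higher (difference 1.91 ± 0.20, adjusted p = 0.000468). Its other probes gave differences of 0.36 and 3.58. The labels do not say whether any probe separates the knocked-in allele from the mouse gene, so the RNA of either can lie behind this signal. Erbb3, the kinase-poor partner through which ErbB2 reaches PI3K, read 2.99, 3.54, 3.33, 3.28 and 3.47 in the tumours against 1.54 and 2.02. It rose 2.92-fold (1.55 ± 0.17, adjusted p = 0.000661) by its brightest probe, while its other probes gave −0.45 to 0.24. Erbb4 was not called (0.18, adjusted p = 0.115).

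Of the 14 measured ErbB receptors and ligands, 4 rose and 3 fell, with a median difference of −0.06, or 0.04 with all columns scaled to one spread. Hbegf and Tgfa were the ligands that rose. Hbegf, a ligand of Egfr and Erbb4, stood at 1.04, −1.34, 0.89, 1.03 and 0.57 in the tumours and at −3.66 and −3.38 in the glands. Its level rose 15.5-fold (3.96 ± 0.64, adjusted p = 0.00265), with KI tumour 2 the lowest of the tumours but still above both glands. Tgfa, another Egfr ligand, rose by 2.23 ± 0.45 (adjusted p = 0.00666), from −0.64 and −0.80 to between 0.48 and 2.42, while its other probe gave −0.06. Areg, the Egfr ligand that drives ductal growth at puberty, was not called: it read 2.98, −1.80, 2.19, 2.63 and 1.48 in the tumours against 2.30 and 2.55. KI tumour 2 lay far under the glands, and the other tumours lay within about 1 unit of them. Nrg4, a neuregulin made by fat, fell by 1.23 ± 0.08 (adjusted p = 6.83e-05). Egfr itself fell by 1.20 ± 0.40 (adjusted p = 0.043, its other probes −0.88 to 0.36). That call was lost without KI tumour 2, 4 or 5 (adjusted p = 0.0682, 0.0606 and 0.0771). Without normal gland 2 the difference was −0.71. The call was also lost with the NIC pools left out of the fit (adjusted p = 0.0631) and with the Cy3-labelled samples alone (0.0529). It was lost too with one spread (0.0850), after quantile normalization (0.0621) and with the mean of all its probes (−0.44, adjusted p = 0.126).

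**Figure D1:**
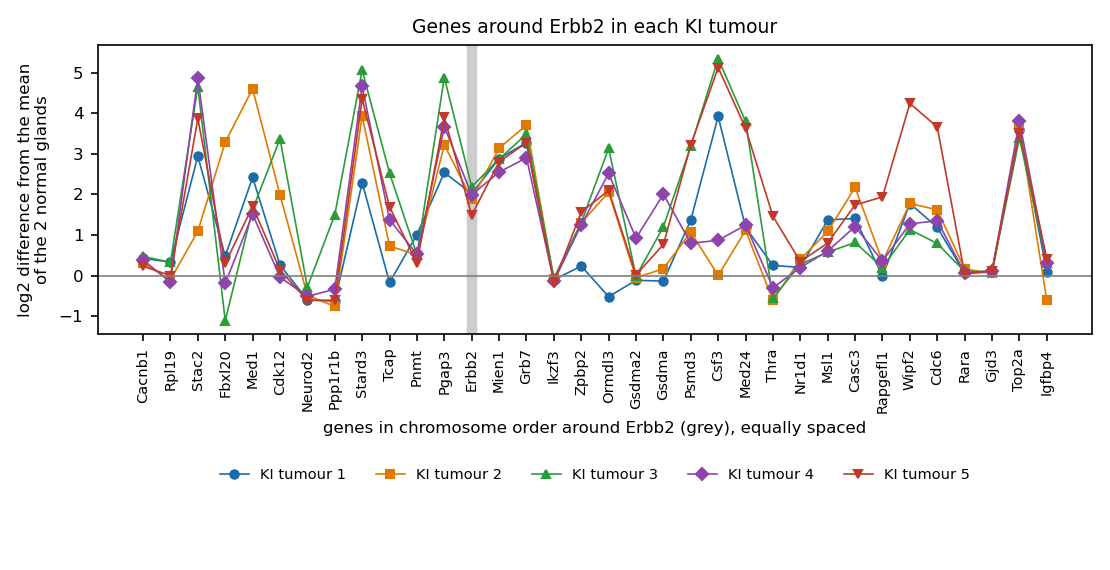
Log2 difference of each KI tumour from the mean of the 2 normal glands (vertical axis, a line for each tumour) for Erbb2 and measured genes beside it on chromosome 11, equally spaced in chromosome order on the horizontal axis. For Stard3, Pgap3, Erbb2, Mien1 and Grb7 all KI tumours lie above 0, and Csf3, Fbxl20 and Cdk12 spread widely among the tumours.

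Several, but not all, of the genes that lie beside Erbb2 on chromosome 11 were high with it. This stretch is gained as a unit in many ErbB2-positive human breast cancers; DNA was not measured here. Mien1, next to Erbb2 and a promoter of cell migration, read 3.04, 3.30, 3.03, 2.71 and 2.96 in the tumours and 0.36 and −0.04 in the glands (2.85 ± 0.23, 7.21-fold, adjusted p = 0.000212). Grb7, an adaptor that binds the ErbB2 receptor, read 4.13, 4.56, 4.34, 3.76 and 4.13 against 0.64 and 1.06 (3.33 ± 0.24, 10.1-fold, adjusted p = 0.000135). Both genes varied little among the tumours and left a wide gap to the glands. Mien1 was saturated on 5 and Grb7 on 4 of the 10 KI arrays. On the other side, Pgap3, which trims lipid anchors of membrane proteins, read 2.36, 3.04, 4.70, 3.49 and 3.72 against −0.30 and −0.07 (3.64 ± 0.54, 12.5-fold, adjusted p = 0.00176). Stard3, a cholesterol carrier of late endosomes, read 1.44, 3.08, 4.21, 3.81 and 3.50 against −1.06 and −0.65. With 16.7-fold (4.06 ± 0.67, adjusted p = 0.00276) it was among the 10 largest ranked rises, although saturated on 2 KI arrays. For these last 2 genes KI tumour 1 was the lowest and KI tumour 3 the highest. Other close neighbours changed less. Pnmt rose 1.49-fold (0.57, adjusted p = 0.0289). Tcap (1.23, adjusted p = 0.186), Ikzf3 (−0.11, adjusted p = 0.258) and Ppp1r1b (−0.17, adjusted p = 0.847) were not called.

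Further out the stretch differed from tumour to tumour. Ormdl3, a regulator of sphingolipid synthesis, read 0.50 in KI tumour 1 and 3.07, 4.16, 3.54 and 3.12 in the others, against 1.61 and 0.43 in the glands (adjusted p = 0.136). Psmd3, a proteasome subunit saturated on 3 KI arrays, read 2.65 in KI tumour 3 and 2.69 in KI tumour 5 but 0.83, 0.54 and 0.26 in the rest, over glands at −0.85 and −0.22. Med24, a Mediator subunit, was also highest in those tumours, with 2.92 and 2.76 beside 0.31, 0.24 and 0.37 and glands at −1.11 and −0.65. For Psmd3 and Med24 every tumour lay above both glands. Csf3, the neutrophil growth factor G-CSF, read 3.93, 5.36 and 5.13 in KI tumours 1, 3 and 5 and 0.01 and 0.87 in KI tumours 2 and 4, against −0.03 and 0.04. KI tumour 5 was the highest for Wipf2, an actin regulator (2.93, the others −0.18 to 0.46, glands −1.25 and −1.38), and for Cdc6, a replication licensing factor (1.44, the others −1.43 to −0.60, glands −2.23 and −2.21). Here too all 5 tumours lay above both glands. KI tumour 2 was the highest for Fbxl20 (3.96, the others −0.44 to 1.15, glands 0.48 and 0.87). For Cdk12, a kinase of transcription elongation, KI tumour 3 read 3.40 and KI tumour 2 read 2.02, with the remaining tumours at −0.01 to 0.29 and the glands at −0.05 and 0.11. None of these genes was called as a group difference.

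Of the 30 measured genes on the list drawn up for this region, Erbb2 included, 11 rose (36.7%) and 1 fell, with a median of 1.19; 18 had all 5 tumours above both glands. Without normal gland 1 or 2 the rises numbered 7 and 6. The single fall, Neurod2, was small (−0.50) and lost its call without normal gland 1 (adjusted p = 0.106). When the measured genes of every chromosome were read in runs of 25 neighbours, 15 of 18603 overlapping runs had a median difference above 1. All 15 lay on chromosome 11 within 24 genes of Erbb2. The highest run, from Stard3 to Top2a, had a median of 1.47 with 11 genes called higher. Its median difference from the mean of the glands was 1.19, 1.09, 1.20, 1.25 and 1.74 in KI tumours 1 to 5 taken singly. The highest run that lay elsewhere, from Krt13 to Kat2a on the same chromosome, reached 0.951, and the median over all runs was 0.00468.

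Genes that respond to ERK signalling rose as a group. Of 17 measured, 12 rose (70.6%) and 0 fell, with a median of 1.30, or 0.94 after quantile normalization. Etv5 and Etv4 are ETS factors made downstream of ERK. Etv5 stood at 0.99, 1.94, 1.76, 1.98 and 1.12 in the tumours and at −2.21 and −2.53 in the glands, 15.2-fold higher (3.93 ± 0.30, adjusted p = 0.000175; its other probe 0.65). Etv4 was 6.97-fold higher (2.80 ± 0.35, adjusted p = 0.000943), with tumours between −0.71 and 0.52 and glands at −2.70 and −2.82. Some feedback inhibitors were among the rises. Dusp6, the phosphatase that switches ERK off, read 1.53, 0.61, 1.54, 1.12 and 1.29 against −1.42 and −0.78 (2.32 ± 0.28, 5.00-fold, adjusted p = 0.000836). Errfi1, which blocks the kinases of the EGF receptor family, rose by 2.22 ± 0.32 (adjusted p = 0.00171), and Phlda1, another induced gene, by 3.35 ± 0.45 (adjusted p = 0.00122). Ier3, an early response gene, was among the 10 largest ranked rises at 16.6-fold. It read 0.55, −0.37, 1.28, 1.09 and 0.67 in the tumours and −3.18 and −3.64 in the glands (4.05 ± 0.46, adjusted p = 0.000653). No tumour overlapped a gland for any of these genes. Not called were Fosl1 (1.38, adjusted p = 0.0607), Egr1 (0.83), Spry4 (0.65), Spred3 (0.28) and Spry1 (−0.14).

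Genes of cell division were higher with few exceptions. Of 43 mitosis and replication genes 41 rose (95.3%), 0 fell, and the median difference was 1.70. The size of this rise depended on how the columns of the 2 tables were put on one footing: with one spread the calls dropped to 9 higher and the median to 0.51, and after quantile normalization to 21 and 1.01. Top2a, the topoisomerase that untangles DNA before mitosis, read −1.70, −1.64, −1.91, −1.5 and −1.77 in the tumours and −5.07 and −5.54 in the glands. At 12.1-fold (3.59 ± 0.21, adjusted p = 5.75e-05) it was the member with the largest rise, although its other probe gave 0.04. Aurkb, a kinase of chromosome alignment, rose 10.4-fold (3.38 ± 0.45, adjusted p = 0.00124) and Bub1, a spindle checkpoint kinase, 10.3-fold (3.36 ± 0.47, adjusted p = 0.00141); with one spread neither was called (adjusted p = 0.0517 and 0.0638). Mki67, the proliferation marker Ki-67, read −1.58, −1.37, −1.03, −1.20 and −1.10 against −3.40 and −2.60 (1.75 ± 0.30, adjusted p = 0.00312), and lost its call with one spread or after quantile normalization (adjusted p = 0.196 and 0.0641). All levels of Top2a, Aurkb, Bub1 and Mki67 were below the reference RNA, in tumours and glands alike. The members not called were Foxm1 (−0.19, adjusted p = 0.243) and Cdc6.

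Cell division genes are known to share promoter elements: CCAAT boxes, and the cell cycle homology element TTTGAA or TTCGAA, to which the DREAM and MuvB complexes bind. RefSeq promoters (GRCm38.p6) were at hand for 36 of the 43 genes, and both motifs were searched on both strands in the 250 bases before the start. CCAAT occurred in 28 of the 36 (77.8%), against 35.9% of 15149 promoters of measured genes. At least 2 CCAAT boxes occurred in 18 (50%, against 11.9%). TTTGAA or TTCGAA occurred in 11 (30.6%, against 14.9%). All 11 also held CCAAT, so that both motifs occurred in 30.6% of the 36 promoters, against 5.53% of the 15149. In 22 promoters of white adipocyte genes, which fell, CCAAT occurred in 4 (18.2%) and TTTGAA or TTCGAA in 2 (9.09%). Of the 11 promoters 3 are shown because they belong to strongly raised genes and hold both motifs: Top2a at chr11:99024190-99024389 (minus strand), Ube2c at chr2:164769729-164769928 (plus strand) and Bub1b at chr2:118598011-118598210 (plus strand). Each line is the 200 bases before the annotated start, 5′ to 3′, with the motifs in capitals. A CCAAT box on the opposite strand appears as ATTGG, and the element TTTGAA on the opposite strand appears as TTCAAA, while the form TTCGAA is the same on both; neighbouring matches can overlap.
Top2a: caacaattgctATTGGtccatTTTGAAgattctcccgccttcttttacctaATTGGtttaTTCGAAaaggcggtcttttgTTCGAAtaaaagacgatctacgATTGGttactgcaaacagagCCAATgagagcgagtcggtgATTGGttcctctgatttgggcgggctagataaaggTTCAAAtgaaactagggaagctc
Ube2c: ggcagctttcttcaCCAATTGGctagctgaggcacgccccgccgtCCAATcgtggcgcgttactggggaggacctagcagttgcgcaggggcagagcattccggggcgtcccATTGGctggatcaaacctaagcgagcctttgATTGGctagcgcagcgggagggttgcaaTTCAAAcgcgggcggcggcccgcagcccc
Bub1b: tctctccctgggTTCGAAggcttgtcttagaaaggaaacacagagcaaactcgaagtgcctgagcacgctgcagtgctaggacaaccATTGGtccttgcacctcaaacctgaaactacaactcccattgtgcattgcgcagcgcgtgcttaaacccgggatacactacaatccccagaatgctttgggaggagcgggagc
Ube2c, whose product feeds mitotic proteins to the proteasome, rose by 2.80 ± 0.32 (adjusted p = 0.000718), and Bub1b, a spindle checkpoint protein, by 2.50 ± 0.23 (adjusted p = 0.000316). A match in these windows is a description of the sequence, not a measured binding site.

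Regulators of entry into the cycle changed less evenly: of 25 cyclins, inhibitors and growth regulators, 8 rose and 3 fell (median 0.28, and 0.02 under either scaling). The rises numbered 5 without normal gland 2 and 4 under either scaling. Myc, the growth-promoting transcription factor, read −0.39, 0.88, −0.75, 0.87 and 0.78 in the tumours against −2.54 and −3.62, 10.2-fold higher (3.36 ± 0.55, adjusted p = 0.00264; its other probes 0.56 to 2.92). Cdk4 rose by 2.23 ± 0.28 and Cdk2 by 2.35 ± 0.46 (its other probe 0.34). Ccnd1, the cyclin D1 through which ErbB2 is known to promote mammary tumours, did not pass the test in all samples (1.40 ± 0.50, adjusted p = 0.0552). It read 0.65, 0.90, 0.50 and 0.03 in KI tumours 1, 3, 4 and 5, and −0.98 in KI tumour 2. All 5 tumours lay above the glands at −1.34 and −1.01, KI tumour 2 only just. Without KI tumour 2 Ccnd1 was called (adjusted p = 0.00623). CDK inhibitors were among the falls. Cdkn1c, p57, read −0.59, −0.46, 0.16, 1.17 and 0.63 against 3.05 and 3.12, 7.48-fold lower (−2.90 ± 0.48, adjusted p = 0.00276). Cdkn2c, p18, fell by 1.28 ± 0.15 (adjusted p = 0.00074).

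Epithelial genes were higher in the tumours. Of 31 junction and polarity genes 25 rose (80.6%) and 0 fell, with a median of 1.88. Ocln, a tight junction protein, read 2.82, 3.81, 3.26, 3.32 and 3.77 against 0.00 and −0.27 (3.53 ± 0.27, 11.5-fold, adjusted p = 0.000171; its other probe −0.46). Cldn1, a claudin, read 4.01, 4.09, 4.79, 4.57 and 4.44 against 1.40 and 0.73, 9.92-fold higher. Esrp1, the splicing factor of epithelial isoforms, was nearly level across tumours at 4.65 to 4.92 and stood at 1.94 and 1.31 in the glands, 8.62-fold higher (its other probe −0.16). Cdh1, E-cadherin, differed by much less: 5.36, 5.62, 5.70, 5.34 and 5.30 against 4.86 and 4.95, or 1.47-fold (0.56 ± 0.12, adjusted p = 0.00937). That call was lost without normal gland 1 (adjusted p = 0.0603), with the Cy3-labelled samples alone (0.733), with RNA sample as a random block (0.371), without the smaller image extraction day (0.271), and with KI values from scanner signals (0.329) or the scanner log ratio (0.0529). In whole tissue a larger share of epithelial cells and more RNA per epithelial cell cannot be told apart, and the same holds, in reverse, for the fat, vessel and lymphocyte genes below.

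Of 32 luminal genes 16 rose and 4 fell, with a median of 1.06. Epcam, an adhesion molecule of all epithelia, read 2.33, 2.51, 2.86, 2.58 and 2.58 against −0.09 and −1.51 (3.37 ± 0.33, 10.4-fold, adjusted p = 0.000407). Krt8, the keratin of luminal cells, read 2.01, 1.10, 2.28, 1.74 and 1.33 against −0.76 and −0.15 (2.15 ± 0.33, adjusted p = 0.00204) and was saturated on 3 of the 10 KI arrays. Elf3, an epithelial ETS factor, rose by 3.21 ± 0.24 and Ovol1, a repressor that holds cells epithelial, by 2.92 ± 0.32 (its other probe 0.98). Genes of hormone-sensing cells had no common direction. Foxa1, the factor that opens chromatin for the estrogen receptor, stood at −1.29, −1.47, −1.09, −1.32 and −1.10 in the tumours and at 2.82 and 2.50 in the glands, 15.1-fold lower (−3.91 ± 0.20, adjusted p = 3.53e-05). It was the largest fall of the list, and it kept its call under every alternative run that tested it. The run over genes above the median signal did not include Foxa1. Esr1, the estrogen receptor, was not called (−0.69, adjusted p = 0.238), and Gata3, its partner factor, was called higher (1.18, adjusted p = 0.0356) but not without KI tumour 2, 3 or 5 or either gland (adjusted p 0.0530 to 0.141). Neither Pgr, the progesterone receptor (0.03), nor Elf5 (0.40, adjusted p = 0.184) was called. Elf5, the alveolar regulator, was called higher without normal gland 2 (adjusted p = 0.0175), with one spread (0.000417) and after quantile normalization (0.0408). The 4 falls came down to 1 without normal gland 1 and under either scaling.

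Basal and myoepithelial genes split: 8 of 26 rose, 8 fell, and the median was −0.10, which turned to 0.54 with one spread. Keratin and adhesion genes were among those that rose. Lgals7, galectin-7 of stratified epithelia, stood at 3.88, 4.41, 4.66, 4.26 and 4.44 against 0.02 and 0.30. This 18.1-fold rise was among the 10 largest ranked (4.17 ± 0.30, adjusted p = 0.00014), although its other probe gave −1.38. Krt14, a basal keratin, read 2.99, 2.41, 2.86, 2.48 and 2.71 against 0.67 and 1.46 (1.62 ± 0.23, adjusted p = 0.0016), and Lamb3, a laminin chain, rose by 2.44 ± 0.27. Krt5, the keratin that pairs with Krt14, was not called (−0.21, adjusted p = 0.834), and it separated the tumours: 0.19 and 0.16 in KI tumours 1 and 2, and 2.06, 2.49 and 2.07 in KI tumours 3 to 5, around glands at 1.47 and 1.74. Trp63, the master factor of basal cells, did the same (−0.17, 1.27, 2.48, 3.95 and 3.44 against 2.15 and 1.89). Contractile genes fell. Myh11, smooth muscle myosin, read 0.52, 0.41, 1.17, 0.36 and 1.61 against 2.85 and 3.05 (−2.14 ± 0.37), a call lost with one spread (adjusted p = 0.105), and Cnn1, calponin, fell by 1.37 ± 0.21. The call of Acta2, smooth muscle actin (−1.21), was lost with the NIC pools left out of the fit (adjusted p = 0.0569) and without KI tumour 4 (0.0718). It was also lost with the Cy3-labelled samples alone (0.0815) and with the mean of all its probes (−0.14, adjusted p = 0.491). Without normal gland 1 or 2 the Acta2 difference was −1.45 and −0.97. Smooth muscle of vessels expresses Myh11 and Cnn1 too. The rises numbered 5 without normal gland 2, and the falls 4 without either gland and 5 without KI tumour 4.

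Milk genes did not move together: of 22, 2 rose and 4 fell, with a median of 0.13. With one spread the median was 0.91 and 1 fell, and after quantile normalization the median was 0.32. Csn2, beta-casein, read 7.15, 5.16, 7.24, 6.06 and 5.18 in the tumours and 4.61 and 7.23 in the glands (0.24, adjusted p = 0.872) and was saturated on 6 of the 10 KI arrays. Wap, whey acidic protein, read 1.23, 3.99, 0.45, 2.72 and 3.45 against −0.21 and 3.24 (adjusted p = 0.61). For both, the 2 glands differed by about as much as the tumours. Lalba, alpha-lactalbumin, was called higher (2.16 ± 0.67, adjusted p = 0.0348), with tumours at 0.99, 3.70, 2.57, 2.99 and 3.42 over glands at 0.25 and 0.90. The call rested on the full set: without any one of KI tumours 2 to 5 or of the glands, its adjusted p lay between 0.0530 and 0.179. Csn3 and Wfdc18, called lower, were saturated on all 10 KI arrays, so that no fold is given for them.

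**Figure D2:**
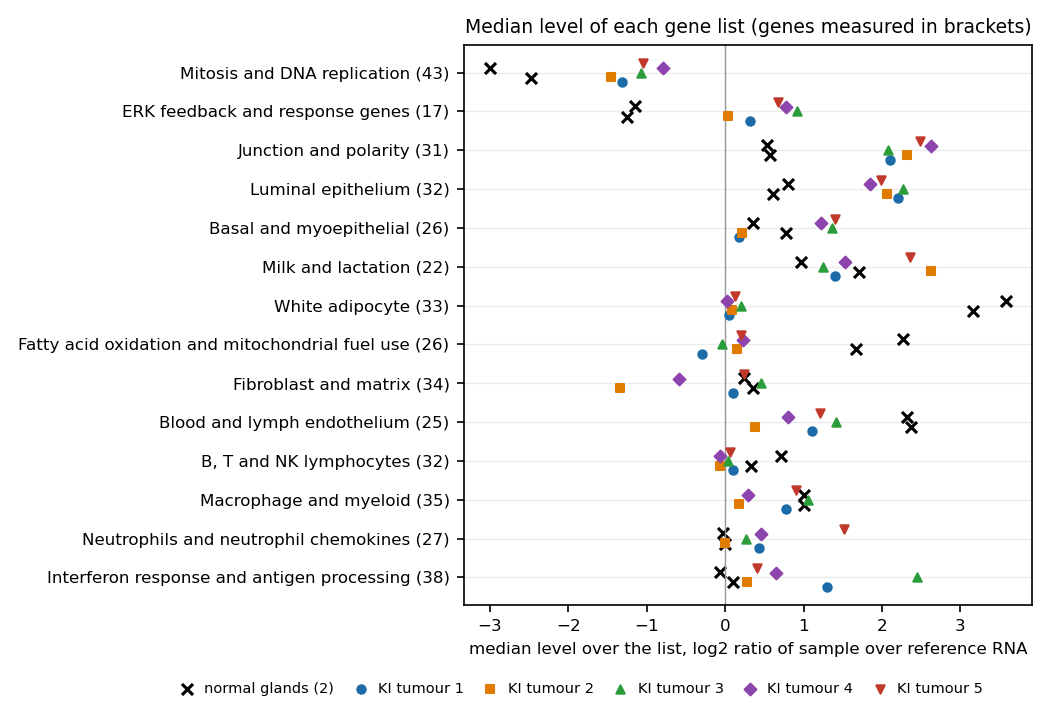
Median log2 level of each gene list over the reference (horizontal axis), with a point for each KI tumour and each normal gland. Mitosis, junction and luminal lists lie higher in all 5 tumours, and the white adipocyte list lies at 0.02 to 0.21 in the tumours against 3.58 and 3.16 in the glands.

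Fat genes made up the largest falls. Of 33 white adipocyte genes 28 fell (84.8%) and 0 rose, with a median of −2.62 (−1.63 with one spread). Rbp4, the retinol carrier secreted by fat, had the largest fall among the ranked genes. It read −2.05, −2.22, −1.14, −2.29 and −1.96 in the tumours and 5.44 and 5.11 in the glands, 148-fold lower (−7.21 ± 0.38, adjusted p = 3.76e-05). Cd36, the fatty acid transporter, read −3.41, 0.16, −0.93, −2.78 and −1.18 against 4.69 and 4.47 (−6.21 ± 0.89, 74.0-fold, adjusted p = 0.00159; its other probe −4.29). Dgat2, which makes the last step of triglyceride synthesis, read −0.65, −0.84, −0.28, −1.09 and −1.11 against 5.01 and 4.05, a difference of −5.32 (its other probes −3.93 to −3.40). Others among the 10 largest falls were Gys2 (glycogen synthase, 64.2-fold), Ces1d (a lipid esterase, 57.9-fold), Slc2a5 (the fructose transporter, 46.3-fold), Arxes2 (an adipocyte gene, 43.0-fold), Cyp2e1 (40.2-fold) and Plin4 (a lipid droplet coat, 39.2-fold). The last of the 10 was the transcript A530053G22Rik (82.5-fold). Slc2a5 was above background on 5 of the 10 KI arrays, Cyp2e1 on 6 and A530053G22Rik on 9, so their folds rest in part on signal at background; these 3 read between −0.06 and 0.50 in every tumour. All 10 kept their calls under every alternative run that tested them. The run over genes above the median signal did not include Rbp4, Gys2, Ces1d, Slc2a5, Cyp2e1 or A530053G22Rik.

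Regulators and hormones of fat fell with them. Pparg, the master factor of fat cells, stood at −1.06, −1.13, −0.48, −0.93 and −0.79 in the tumours and at 3.76 and 3.29 in the glands (−4.41 ± 0.19). Lep, leptin, fell from 5.12 and 4.33 to between 0.01 and 0.35. Adipoq, adiponectin, did not pass the test (−2.23 ± 0.80, adjusted p = 0.0573), reading 0.50, 0.78, 2.49, 0.05 and 1.45 against 3.88 and 2.69. Without KI tumour 3, its highest tumour, Adipoq was called lower (adjusted p = 0.0278), and so it was with the NIC pools left out of the fit (0.0419). Fabp4, the fatty acid binding protein of fat cells and macrophages, was not called by its brightest probe (0.22), reading 2.23, 1.77, 3.86, 2.51 and 2.44 against 2.70 and 1.99. Cfd, adipsin, ranged from 0.81 to 6.18 among the tumours and overlapped the glands at 5.18 and 3.88. KI tumour 3 was the highest tumour for Adipoq, Fabp4, Cfd, Rbp4, Plin4 and Lep.

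Fat that burns fuel was lower too. Of 15 brown fat genes 9 fell and 1 rose (median −0.80). Ucp1, the uncoupling protein of brown fat, read 0.01, −0.08, 0.13, 0.09 and 0.22 against 4.14 and 3.56 (−3.77 ± 0.15, 13.7-fold), and Cox8b, a cytochrome oxidase subunit, 0.08, 0.48, 0.99, −0.04 and 0.14 against 5.65 and 4.83 (−4.91 ± 0.32, 30.0-fold). Of 26 genes of fatty acid oxidation and mitochondrial fuel use 22 fell and 0 rose (median −1.89). Cpt2, which hands long chain fatty acids to the mitochondrial matrix, read −0.25, −0.17, −0.33, −0.08 and −0.12 against 2.58 and 2.81 (−2.88 ± 0.11, 7.38-fold, adjusted p = 1.22e-05). Etfdh, which passes electrons from that pathway to the respiratory chain, fell by 2.75 ± 0.16 (its other probe −0.21). Synthesis was mixed: of 31 fatty acid and cholesterol synthesis genes 10 fell and 1 rose (median −0.56). Elovl6, a fatty acid elongase, read −1.02, 0.82, 0.15, 0.62 and 0.73 against 4.25 and 4.04 (−3.88 ± 0.49, 14.8-fold), and Fasn, fatty acid synthase, 0.71, 0.55, 0.89, 0.67 and 1.09 against 2.87 and 1.96 (−1.64 ± 0.28, adjusted p = 0.00325). With one spread Fasn was not called (adjusted p = 0.0559) and 6 members of the synthesis list fell. Scd1, the main desaturase, was not called (−1.34, adjusted p = 0.204).

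**Figure D3:**
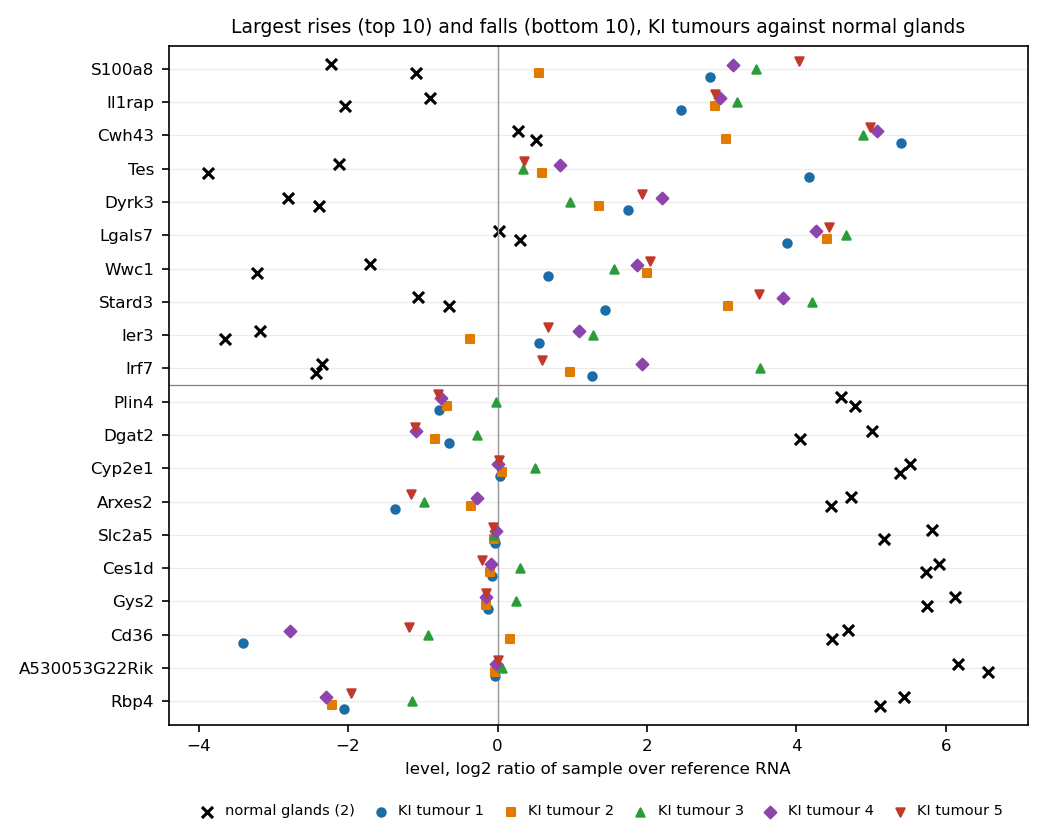
Log2 level over the reference (horizontal axis) of the 10 genes with the largest called rise and the 10 with the largest called fall, with a point for each KI tumour and each normal gland. All 5 tumours lie on one side of both glands for each gene because only genes without overlap between the groups were ranked. Tes, Cd36 and S100a8 spread most among the tumours.

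The hormone axis through which growth hormone acts fell at its receptor and its effector. Ghr, the growth hormone receptor, read −1.82, −1.36, −1.28, −1.33 and −1.64 against 2.87 and 2.17 (−4.01 ± 0.21, 16.1-fold, adjusted p = 3.99e-05). Igf1, the growth factor it induces in stroma and fat, read −1.04, −1.37, −0.60, −1.36 and −0.55 against 1.84 and 1.84 (−2.82 ± 0.25, 7.08-fold; its other probes −4.26 to −1.41). Igf1r, the receptor for Igf1, moved the opposite way, reading −0.67, −0.63, −0.15, 0.38 and −0.19 against −2.10 and −2.69 (2.14 ± 0.34, adjusted p = 0.00246; its other probes 0.17 to 0.84). In the list of 19, 3 rose and 4 fell (median −0.10, and 0.04 with one spread); without KI tumour 2, 5 rose.

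Stromal genes changed in both directions. Of 34 fibroblast and matrix genes 2 rose and 6 fell (median −0.25), or 3 fell without normal gland 2. Dcn, decorin of the resting stroma, read −1.28, −2.02, −0.25, −1.85 and −0.59 against 2.94 and 2.58 (−3.96 ± 0.57, 15.6-fold, adjusted p = 0.00167; its other probe −0.22). Pdgfra, the receptor that marks mammary fibroblasts, fell from 0.14 and −0.31 to between −5.12 and −2.70, while its other probe gave 0.03. Tnc, tenascin C of tumour matrix, read 1.64, 0.29, 1.37, 0.79 and 0.58 against −1.75 and −2.10 (2.86 ± 0.36, adjusted p = 0.00102; its other probes −0.33 to 0.07). Col1a1, the main collagen, was not called and overlapped the glands (0.53, adjusted p = 0.511). Among 24 matrix metalloproteinases and inhibitors 4 rose and 4 fell (median −0.05, and 0.05 with one spread). Serpine2, a protease inhibitor, rose by 3.27 ± 0.40 (adjusted p = 0.000894). Mmp13, a collagenase, was called (3.15 ± 1.07, adjusted p = 0.0481) with 2.38, −1.91, 1.10, 2.17 and 1.48 over glands at −2.06 and −2.14, and lost that call without any one of KI tumours 1, 3, 4 and 5 or of the glands (adjusted p 0.0786 to 0.167). Without KI tumour 2 the list had 9 rises, without KI tumour 3, KI tumour 5 or normal gland 2 it had 2, and without normal gland 1 it had 1.

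Endothelial genes fell more often than they rose: of 25, 11 fell and 1 rose (median −0.76, and −0.09 with one spread). The rise was that of Ramp2, a co-receptor for adrenomedullin (1.44, adjusted p = 0.0152; its other probe −1.09), which was not called without normal gland 1 (adjusted p = 0.105). Nos3, the nitric oxide synthase of endothelium, read 0.69, −0.44, 0.49, 0.18 and 0.41 against 2.73 and 2.44 (−2.32 ± 0.28, adjusted p = 0.000826). Tek, the angiopoietin receptor, read 1.65, 0.86, 1.69, 0.63 and 2.24 against 4.14 and 3.46 (−2.39 ± 0.47), a call lost with one spread (adjusted p = 0.222). Pecam1, the pan-endothelial CD31, was not called (−0.06), and neither was Vegfa, the vessel growth factor (−0.17, adjusted p = 0.832), which read −1.44 in KI tumour 2 and 0.10 to 0.69 in the others. Without either gland the falls numbered 6, and with one spread 4.

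Lymphocyte genes were lower in the tumours. Of 32 B, T and NK cell genes 23 fell (71.9%) and 1 rose, with a median of −1.10; without normal gland 1 the falls numbered 15. B lineage genes led the list. Cd79b, a chain of the B cell receptor, read −3.23, −3.45, −3.28, −3.43 and −3.39 against 0.16 and −0.17 (−3.35 ± 0.10, 10.2-fold, adjusted p = 3.57e-06). Jchain, the joining chain of plasma cell antibodies, read −4.29, −4.80, −4.36, −5.61 and −4.07 against −1.47 and −1.71 (−3.04 ± 0.38, adjusted p = 0.000965). The T cell marker Cd3e was not called (−0.33, adjusted p = 0.116), although it was without KI tumour 2 or normal gland 2 (adjusted p = 0.0443 and 0.0468). Cd4, another T cell marker, was the member that rose, by 0.42 to 0.55 with single RNA samples left out. It was not called with the Cy5-labelled samples alone (adjusted p = 0.0995), with one spread (0.264) or after quantile normalization (0.321). Nor was it called with the mean of all its probes (adjusted p = 0.0740) or without the smaller image extraction day (0.0648). Mammary glands can hold a lymph node, and the labels do not say whether it was removed.

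Macrophage genes did not shift as a group: of 35, 5 rose and 4 fell (median −0.03, 0.74 with one spread and −0.12 after quantile normalization). Cd14, a lipopolysaccharide co-receptor that mammary epithelium also makes, read 1.75, 1.35, 1.06, 2.05 and 1.81 against −0.72 and −0.16 (2.04 ± 0.30, adjusted p = 0.00169). Receptors of resident macrophages fell, Marco from 2.45 and 1.30 to between −0.01 and 0.18 (−1.81 ± 0.26) and Timd4 by 1.47 ± 0.16. Adgre1 (−0.16), Cd68 (0.04) and Csf1r (−0.54, adjusted p = 0.141), which mark macrophages broadly, were not called. Arg1, arginase of alternatively activated macrophages, was called (2.66 ± 0.84, adjusted p = 0.037) with tumours at 4.90, 1.87, 4.75, 4.70 and 4.37, but KI tumour 2 lay below normal gland 1 at 2.13, and the call was lost without any one of KI tumours 1, 3, 4 and 5 or of the glands (adjusted p 0.0632 to 0.222). Without KI tumour 2, 8 macrophage genes rose; without normal gland 1 or 2, 2 and 3 rose, and without normal gland 2, 2 fell.

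The largest rise among the ranked genes was that of S100a8, a calcium-binding protein of neutrophils that inflamed epithelium also makes. It read 2.84, 0.56, 3.46, 3.15 and 4.04 against −2.23 and −1.09, 22.2-fold higher (4.47 ± 0.95, adjusted p = 0.00798), and was not called without normal gland 1 (adjusted p = 0.0620). Its partner S100a9 was not called (1.35, adjusted p = 0.426). Il1b, the inflammatory cytokine, read 4.26, 0.61, 3.78, 2.37 and 3.8 against −0.24 and 0.10 (3.03 ± 0.92, adjusted p = 0.0323), and lost its call without KI tumour 1, 3 or 5 or either gland (adjusted p 0.0520 to 0.141). KI tumour 2 was the lowest tumour for both. Cxcl5, a neutrophil attractant, read −5.17 in that tumour, near the glands at −5.55 and −5.58, and between −2.47 and 1.84 in the others (adjusted p = 0.087). Of 27 neutrophil and neutrophil chemokine genes 4 rose (14.8%) and 0 fell, with a median of 0.72. Without KI tumour 2, 12 of them rose, without KI tumour 5, 2, and without normal gland 1 or 2, 0 and 1.

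Interferon-stimulated genes varied widely from tumour to tumour. Irf7, the factor that amplifies type I interferon, read 1.27, 0.97, 3.52, 1.93 and 0.59 against −2.35 and −2.42 and was among the 10 largest rises (4.04 ± 0.71, 16.5-fold, adjusted p = 0.00356). Oas2, an antiviral RNA sensor, read 1.30, 1.85, 4.26, 1.57 and 1.48 against −1.93 and −0.71 (3.41 ± 0.87, adjusted p = 0.0169; its other probe 0.83; not called without normal gland 1, adjusted p = 0.117). Isg15, a ubiquitin-like modifier, read 1.66, −0.12, 3.25, 0.82 and −0.33 against −2.63 and −2.17 (3.46 ± 0.94, adjusted p = 0.021; not called without normal gland 1 or 2, adjusted p = 0.109 and 0.0752). KI tumour 3 was the highest for all 3. The list median was 2.45 in that tumour, 1.30 in KI tumour 1, and 0.28 to 0.65 in the other 3, against −0.07 and 0.10 in the glands. Of 38 members 8 rose and 0 fell (median 0.84). Without KI tumour 3 the rises numbered 13, and without either gland 4.

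**Figure D4:**
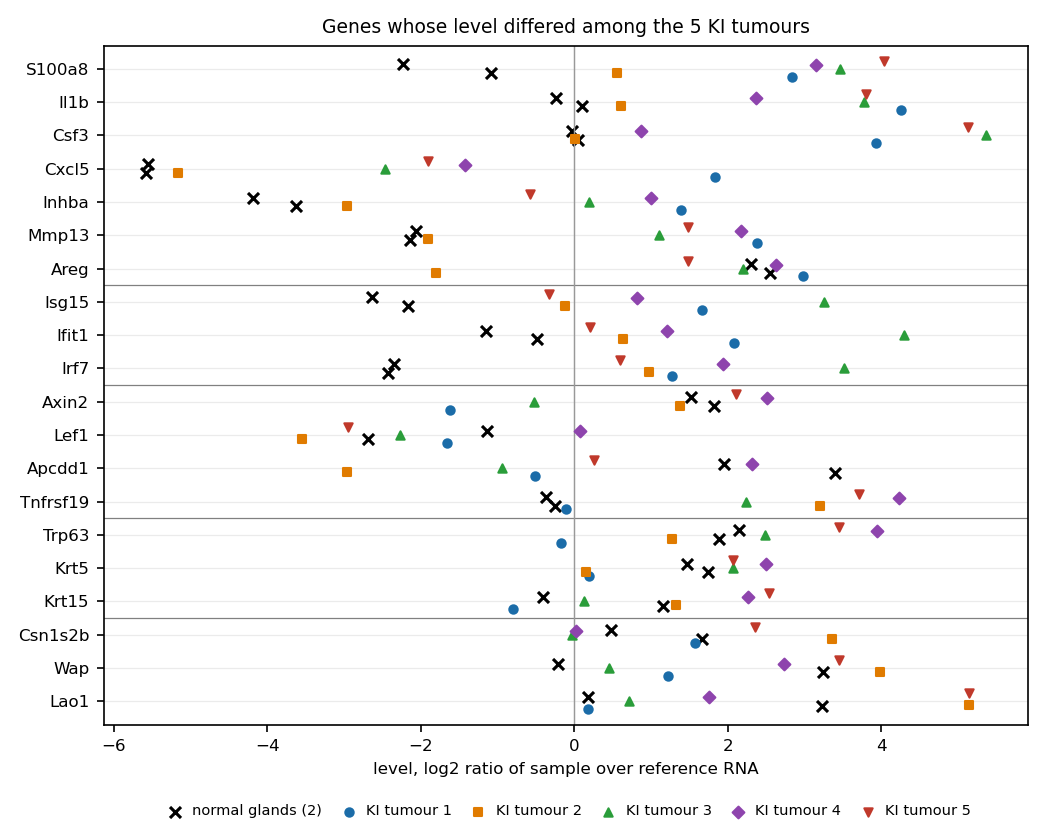
Log2 level over the reference (horizontal axis) of genes that differ among the 5 KI tumours, in groups down the vertical axis, with a point for each KI tumour and each normal gland. KI tumour 2 is lowest for the inflammatory genes, and KI tumour 3 is highest for the interferon genes.

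Regulators of epithelial to mesenchymal transition went both ways (28 measured, 7 rose, 8 fell, median −0.21). Zeb1, Twist2 and Snai2, known repressors of E-cadherin, fell. Zeb1 read −1.84, −2.50, −1.40, −2.00 and −1.79 against 0.06 and 0.31 (−2.09 ± 0.26, adjusted p = 0.000952), and Twist2 fell by 2.73 ± 0.32. Snai2 read −3.46, −4.57, −2.20, −1.78 and −2.05 against −0.25 and −0.32 (−2.53 ± 0.73, adjusted p = 0.0264), and lost its call without normal gland 1 or 2 (adjusted p = 0.111 and 0.104). Foxc1, a forkhead factor, rose evenly, with 0.82, 1.32, 1.37, 1.52 and 1.30 against −2.40 and −2.46 (3.70 ± 0.17, adjusted p = 2.39e-05), and Tgfb2, a ligand that induces the transition, by 2.55 ± 0.45. Inhba, an activin chain, read 1.38, −2.96, 0.19, 1.0 and −0.58 against −4.18 and −3.63 (3.71 ± 1.07, adjusted p = 0.0264), with KI tumour 2 again the lowest; the call was lost without KI tumour 4 or either gland (adjusted p = 0.0505, 0.129 and 0.0873). Without KI tumour 4 the list had 4 rises, without normal gland 1 or 2 it had 2 and 3, and without either gland 4 falls.

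Wnt signalling was examined because its effector, beta-catenin, is named in the title of the study. Of 46 ligands, receptors and beta-catenin machinery genes 14 rose and 4 fell (median 0.27). Lrp5, a Wnt co-receptor, read 0.70, 0.88, 1.15, 1.19 and 1.25 against −1.95 and −1.13 (2.57 ± 0.23, adjusted p = 0.000305). Both Axin1 (2.50 ± 0.25), the scaffold of the complex that destroys beta-catenin, and Gsk3b (2.13 ± 0.18), the kinase of that complex, rose. Fzd4, a Wnt receptor, fell, reading −0.07, −0.22, 0.19, −0.16 and 0.18 against 1.58 and 2.30 (−1.96 ± 0.22). Ctnnb1, beta-catenin itself, was not called (0.59 ± 0.41, adjusted p = 0.282), reading 1.28, 0.17, 1.84, 0.85 and 0.60 against 0.53 and 0.18. RNA levels do not show how much beta-catenin protein is in the nucleus. The rises of this list numbered 9 without either gland.

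Of 34 Wnt target and feedback genes 9 rose (26.5%) and 0 fell, with a median of 0.37; without normal gland 1 or 2 the rises numbered 4 and 5, and after quantile normalization 5. Nkd2, a feedback inhibitor, read 3.63, 1.78, 3.86, 3.48 and 3.02 against 0.41 and 0.24 (2.83 ± 0.51, adjusted p = 0.00415), and Sox4, a transcription factor that many pathways induce, rose by 2.63 ± 0.28. Axin2, the most general target of the pathway, was not called (−0.90 ± 1.09, adjusted p = 0.544) and lay apart among the tumours, at −1.61, 1.37, −0.53, 2.52 and 2.11, on both sides of the glands at 1.53 and 1.81. Apcdd1, another feedback inhibitor, ranged from −2.96 to 2.31 with KI tumour 4 the highest (glands 1.95 and 3.39). Lef1, the DNA-binding partner of beta-catenin, was highest in the same tumour at 0.08, the others at −3.55 to −1.66. Tnfrsf19 read −0.11 in KI tumour 1 and 2.24 to 4.23 in the other tumours, against −0.37 and −0.25 (2.96, adjusted p = 0.056). KI tumour 1 was thus the lowest tumour for Axin2, Tnfrsf19, Trp63 and Ormdl3.

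Stress and supply genes rose in part. Of 26 stress response and amino acid supply genes 14 rose and 3 fell (median 0.82, but 0.10 with one spread, where 7 rose, and 0.31 after quantile normalization, where 8 rose). Xbp1, the factor of the unfolded protein response, read 0.51, 2.86, 1.64, 2.39 and 2.32 against −0.72 and −1.89 (3.25 ± 0.62, adjusted p = 0.00511). Slc7a5, an importer of large amino acids, rose by 1.98 ± 0.32, and Trib3, a stress-induced pseudokinase, by 2.53 ± 0.30 (its other probe 0.07). The falls numbered 1 without either gland. Of 31 hypoxia and glycolysis genes 9 rose and 3 fell (median 0.72, and 0.06 with one spread, where 1 rose), with 5 rises and 1 fall without either gland. Vegfa, also on that list, was not called, as given above.

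Among Notch genes 4 of 21 rose and 5 fell (median 0.03, 0.32 with one spread and −0.06 after quantile normalization). Without normal gland 1 or 2 the rises numbered 2 and 1. The falls numbered 1 with one spread, 2 without normal gland 1, and 3 without KI tumour 1, 2, 4 or 5. Mfng, which adds sugars to Notch receptors, read −0.33, −1.19, −0.07, −0.73 and 0.00 against 2.09 and 2.71 (−2.86 ± 0.34, adjusted p = 0.000756). Of 24 genes of progenitor or claudin-low cell surfaces 8 rose and 1 fell (median 0.09, and 0.89 with one spread), with 3 rises without normal gland 2. Sox9, a progenitor factor, read 1.86, 1.78, 1.99, 1.61 and 1.26 against −0.17 and −0.92 (2.25 ± 0.32; its other probes 0.24 to 3.17). Aldh1a1, the aldehyde dehydrogenase used to mark progenitors, fell by 2.03 ± 0.20.

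Other tissue that can be cut out with a gland was measured through 2 lists. Of 20 skeletal muscle genes 5 fell and 1 rose (median −0.35), with 8 falls without normal gland 1 and 3 without normal gland 2. The muscle list lay at 0.73 in KI tumour 2 and at −0.16 to −0.01 in the other tumours, against −0.28 and 0.90 in the glands. Myl1, a fast muscle myosin light chain, read 1.32 in KI tumour 2 and −2.60 to −2.42 in the other tumours, against 2.39 and 3.18 (−4.52 ± 1.06, adjusted p = 0.0122), and was not called without normal gland 2 (adjusted p = 0.0770). Of 14 Schwann cell and nerve genes 5 rose and 4 fell (median 0.16), and the rises numbered 3 and 2 without normal gland 1 or 2. Pmp22, a myelin protein, fell by 2.68 ± 0.45 (its other probe −0.15), while Ncmap, a myelin-associated membrane protein, rose by 2.69 ± 0.39.

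The rest of the 10 largest rises belong to none of these groups. Il1rap, the shared co-receptor for interleukin-1 and interleukin-33, read 2.46, 2.91, 3.20, 2.98 and 2.91 against −0.90 and −2.05 (4.37 ± 0.30, 20.7-fold, adjusted p = 0.000123; its other probes 0.29 to 2.19). Cwh43, which remodels lipid anchors, read 5.40, 3.06, 4.89, 5.08 and 4.98 against 0.28 and 0.51 (4.29 ± 0.69, 19.5-fold, adjusted p = 0.00253). Dyrk3, a kinase that dissolves condensates in mitosis, read 1.75, 1.36, 0.97, 2.20 and 1.93 against −2.80 and −2.39 (4.24 ± 0.33, 18.9-fold, adjusted p = 0.000197). Wwc1, the Hippo pathway scaffold KIBRA, read 0.67, 2.00, 1.56, 1.87 and 2.04 against −1.71 and −3.22 (4.09 ± 0.48, 17.1-fold, adjusted p = 0.000772). These 4 genes kept their calls under every alternative run. Tes, a focal adhesion protein, stood apart in one tumour: 4.17 in KI tumour 1 and 0.34 to 0.84 in the others, against −2.12 and −3.88 (4.26 ± 1.08, 19.1-fold, adjusted p = 0.016). It was saturated on 2 KI arrays, its other probe gave −0.53, and it was not called without normal gland 2 (adjusted p = 0.118).

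Against the other tumours of the series the KI tumours differed in far fewer genes. Between KI tumours and NIC pools, whose arrays lie in the same table as those of the normal glands, 843 genes were higher in KI (2.92%) and 949 lower (3.28%). That is 6.2% in all. Of the 176 genes named by rule, 16 were called against the pools. Higher in KI were S100a8 (4.19), Pdk4 (4.10), Tnc (3.13), Cwh43 (3.03), Krt14 (2.85), Lamb3 (2.68), Pgap3 (2.39), Cd14 (1.72), Grb7 (1.31), Elf3 (1.28) and Cd79b (0.48). Lower in KI were Cox8b (−3.05), Me1 (−1.58), Lrp5 (−1.11), Foxa1 (−0.87) and Cdkn2c (−0.70). Erbb2 itself was not called between the tumour types (0.13, adjusted p = 0.772). These values use the pools only as means of 5 tumours, so they carry no spread between single NIC tumours.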

How the data were processed

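RNA of 5 KI tumours, 2 normal glands and 2 NIC pools was measured on 2-colour Agilent arrays against a common reference, each RNA with 2 dye arrays. Each deposited value is a log2 ratio, sample against reference, as the authors' processing left it; its normalization is not given in the sources used here beyond the name RMA in the submitters' processing notes, which carries no role. Per the file headers, the scanner files of the KI arrays were made with Feature Extraction A.7.5.1 and hold intensity values and a log10 ratio. Direction was checked on BrightCorner control spots, at −2.55 to −1.01 in columns with Cy5-labelled samples and 1.36 to 2.86 with Cy3-labelled ones. On 7 KI arrays the dyes of the labelling protocol contradict the label field; the label field was followed. Deposited KI ratios correlated with loess ratios computed here from the scanner intensities at r = 0.982 to 0.988.

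Rows of both value tables were joined by spot number, and probe names for all arrays came from the KI scanner files. Of 43790 spots an array, 2256 control spots were left out. The 41174 probes were named through RefSeq (GRCm38.p6): 20716 by accession, 5039 by current and 5279 by older symbol, and 10140 kept the name in the file. Where a gene had several probes, the brightest over the KI arrays was used, and the other probes of a called gene are given where they differ from it by over 1 log2 unit or in sign. Both dye arrays of an RNA were averaged, and lmFit and eBayes (limma 3.58.1 in R 4.3.3, the package data.table in version 1.17.8) were run on 9 RNA means, with 6 residual degrees of freedom. The fit was tested on simulated data. An alternative called "one spread" scaled all columns to one median absolute value, and others are given at the end. The number of arrays limits the precision.

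The gene lists and the members named were chosen with earlier results of these data known. Named were the 10 largest called rises and falls among genes with a matched symbol and no overlap between the groups. Also named were up to 3 called genes of each list in each direction and a fixed set of known genes. Other genes were chosen after their values were seen: Pparg, Lep, Adgre1, Cd68, Cfd, Ube2c, Bub1b, Cxcl5, Apcdd1, Lef1, Tnfrsf19, S100a9 and the neighbours of Erbb2 that differed among tumours. Also named outside these rules were Mien1, Errfi1, Fabp4, Erbb4, further close neighbours of Erbb2 and some list members given as not called.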

Additional observations from a re-analysis of the deposited data

Results flagged for a closer look

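In the 5 KI tumours, 89 values (the genes with the largest changes, the fixed set of known genes and the list medians) were checked for a tumour that stands apart from the other 4 by a gap large against the group's range, and 9 did; the criterion marks about 1 in 20 groups by chance. KI tumour 3 was the highest for 5 genes of fat: Plin4 at −0.0154 (the others −0.796 to −0.673), Cyp2e1 at 0.501 (0.0114 to 0.0555), Ces1d at 0.295 (−0.208 to −0.0766), Gys2 at 0.241 (−0.154 to −0.121) and Rbp4 at −1.14 (−2.29 to −1.96). These 5 all lay far below the normal glands in that tumour too. KI tumour 2 was the lowest for Cwh43 at 3.06 (4.89 to 5.40) and for Vegfa at −1.44 (0.101 to 0.694), and it had the highest median of the skeletal muscle list, 0.73 (−0.161 to −0.0128). KI tumour 1 was the highest for Tes at 4.17 (0.336 to 0.84).

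Of the 176 genes named by rule, 16 differed between the KI tumours and the NIC pools, the second tumour group, by limma with adjustment over all genes. The differences were 4.19 for S100a8, 4.10 for Pdk4, 3.13 for Tnc, 3.03 for Cwh43, 2.85 for Krt14, 2.68 for Lamb3, 2.39 for Pgap3, 1.72 for Cd14, 1.31 for Grb7, 1.28 for Elf3 and 0.483 for Cd79b. They were −3.05 for Cox8b, −1.58 for Me1, −1.11 for Lrp5, −0.869 for Foxa1 and −0.698 for Cdkn2c.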

How the results depend on the processing

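With 2 normal glands, in a different table from the KI tumours, the counts depended on each gland and on the scaling of the columns. Leaving out one RNA sample at a time gave 9271 to 12069 called genes, 3544 to 5171 higher and 5264 to 6898 lower; at least 2-fold calls ranged from 3672 to 4424, with 2024 to 2795 higher and 1425 to 1661 lower. With all columns scaled to one spread, 8131 genes were called, 2958 of them higher, and 2810 changed at least 2-fold, 1577 of them higher. After quantile normalization 3073 were called higher, 1630 at least 2-fold higher, and KI against NIC gave 955 calls. Over genes above the median signal alone, fewer genes being tested, 6505 were called, 2908 of them lower and 844 at least 2-fold lower. Csn3 (0.28) and Wfdc18 (0.13) changed sign with one spread, and Rbl2 (0.026) with the mean of all its probes; the cause was not tested. Of 157 called named genes, 93 kept their call in every alternative; 43 lost it without normal gland 1, 38 without normal gland 2, 36 with one spread and 17 after quantile normalization. Named genes not above the median signal were not tested in the run over genes above it, and were not counted as lost there. No paired analysis was possible because the KI and normal numbers were given in the order of the record and do not pair samples. Scanner files of the normal arrays were not used here, so their signal over background is unknown.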
